A study of Mus musculus with 9 samples.

Results

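Tetraspanins are small surface proteins with a 4-pass membrane fold, and 26 genes of this family were examined in cultured muscle satellite cells of the mouse, the stem cells that repair skeletal muscle. Members were all genes whose symbol is Tspan followed by a number, plus Cd9, Cd37, Cd53, Cd63, Cd81, Cd82 and Cd151. The authors' deposited TPM table, which compares Mutant with Control cells, lists 26 of them among 22631 genes, and a further gene comparison lists 25 of them among 27775 genes. The family was taken up because Tspan9 had been noted as lower in the Mutant, so the values of Tspan9 in that comparison chose it and are given as a description only, whereas the other members entered by name.

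The series holds 9 libraries in 3 groups of 3, all from hindlimb muscle of mice aged 9 weeks. Control mice received oil. Mutant mice, which lack Uhrf1 in satellite cells, received 150 µl of tamoxifen at 20 mg/ml into the abdomen on 5 consecutive days, the usual trigger of an inducible Cre recombinase. Cre Control mice also received tamoxifen. The sources used here do not name the strain, the promoter that drives Cre or the alleles carried by the Control and Cre Control mice. Control and Mutant cells were grown for 3 days from a seeding of 5000 cells per cm2, and the protocols of the Cre Control cells are not given. Since Control mice had oil and Mutant mice tamoxifen, an effect of the drug or of Cre cannot be told apart from the loss of Uhrf1 in that comparison.

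Tetraspanins rarely act as receptors on their own. They gather partner proteins, among them integrins, immunoglobulin-family proteins and the sheddase ADAM10, into patches of membrane, and several of them mark the vesicles that cells release. In skeletal muscle Cd9 and Cd81 are known for limiting or aiding the fusion of myoblasts, and members that bind ADAM10 steer which of its substrates, such as Notch receptors and cadherins, are cut. UHRF1 brings the maintenance DNA methyltransferase to newly copied DNA at the dinucleotide CG.

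For genes, only group means and the results of the authors' tests were analysed here, so no value per library, and no depth per library, stands beside a tetraspanin. Levels are in TPM, a unit scaled for gene length and library size that allows genes to be compared with each other. The fold change deposited in the TPM table is a ratio of those means after 1 TPM was added to each, which shrinks the change of low genes. Its standard error (SE) belongs to the authors' test. The product of the deposited statistic and SE, called the test estimate here, is therefore the value printed with an SE, in log2 units. An adjusted p below 0.05 counts as a call. No label ties a group's libraries to different mice, so the p-values measure the spread between libraries, which may be technical. The further comparison sets an arm named PT against one named PUT. What these arms are is not stated, and the tables may share libraries, so its values are set beside the others without any count of agreement.

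Markers of the labelled cell type were present in both Control and Mutant cells. Pax7, which marks satellite cells, had a mean of 23.1 TPM in Control and 29.6 TPM in Mutant, and Myod1, a determination factor of muscle, had 1018 and 914 TPM in the authors' deposited TPM table. Of 8 markers of satellite cells and myoblasts, 3 rose and 4 fell, with sums of 3012 and 3058 TPM in the authors' deposited TPM table, and 2 rose and 6, Pax7 and Myod1 among them, fell in the authors' deposited PT/PUT table. The sums were 26.3 and 23.0 TPM for 8 endothelial markers (1 rose, 2 fell) and 65.9 and 75.3 TPM for 6 fibroblast markers (0 passed) in the authors' deposited TPM table. The authors' deposited PT/PUT table had 3 of 8 endothelial and 2 of 5 fibroblast markers higher and 0 lower. Calls took in 17.1% of all genes in the authors' deposited TPM table, and 35.3% of those with a mean of at least 10 TPM. They took in 47.2% of all genes in the authors' deposited PT/PUT table (25.1% higher and 22.1% lower). No shift of a cell type is therefore read from these marker counts. The part of such cells in the tetraspanin values was not tested. Uhrf1 itself stood at 118 TPM in Control and 20.4 TPM in Mutant (estimate -3.12 with SE 0.60) in the authors' deposited TPM table, and its log2 fold change was -4.00 (SE 0.27) in the authors' deposited PT/PUT table. The repeat counts, the values available per library, set 1 library apart. IAPEz-int, a retroviral element, took 0.501% of repeat counts in Control 1 and 0.675% in Control 2, but 13.1% in the library labelled Control 3, beside 9.29% to 16.3% in the Mutant libraries. Total repeat counts were 1794698 to 2245124 per library, and the 95% Wilson interval of the library labelled Control 3, which covers counting error only, ran from 13.1% to 13.2%. The sources used here do not state if that library entered the Control means below, and its part in any tetraspanin value was not tested.

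The upstream sequences of 3 members are shown first. Tspan9 had the lowest fold change, the value that chose the family, and Cd81 and Cd9 had the smallest adjusted p of those that rose. Each run is the 250 bases before the RefSeq start site (GRCm38.p6), on the strand of the gene, with every CG dinucleotide in capitals.
Tspan9, chr6:128143579-128143828, minus strand: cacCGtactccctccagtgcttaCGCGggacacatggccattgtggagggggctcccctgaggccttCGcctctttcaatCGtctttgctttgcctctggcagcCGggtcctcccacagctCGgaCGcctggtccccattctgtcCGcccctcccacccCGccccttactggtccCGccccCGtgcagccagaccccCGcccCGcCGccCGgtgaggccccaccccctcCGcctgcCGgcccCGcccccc
Cd9, chr6:125494761-125495010, minus strand: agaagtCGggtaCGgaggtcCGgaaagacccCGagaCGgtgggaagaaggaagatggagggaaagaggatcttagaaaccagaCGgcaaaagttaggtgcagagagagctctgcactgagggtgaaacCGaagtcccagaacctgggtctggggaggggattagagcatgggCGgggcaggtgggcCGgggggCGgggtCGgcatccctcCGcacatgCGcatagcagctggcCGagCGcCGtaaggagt
Cd81, chr7:143052500-143052749, plus strand: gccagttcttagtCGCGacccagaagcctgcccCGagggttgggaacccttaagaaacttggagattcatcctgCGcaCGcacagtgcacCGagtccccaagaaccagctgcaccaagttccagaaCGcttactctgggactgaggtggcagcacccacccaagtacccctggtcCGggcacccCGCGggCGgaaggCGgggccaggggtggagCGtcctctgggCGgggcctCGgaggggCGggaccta
The Tspan9 run holds 19 CG, and 19.7% of all 32851 RefSeq windows hold at least as many in the same 250 bases. The runs of Cd9 and Cd81 hold 16 each, which 25.4% of all windows reach. All 3 genes thus have upstream stretches richer in CG than the median window, which holds 6, although 1 was lower and the others higher in Mutant. Over the full 300-base windows (250 bases before to 50 after the start, the window nearest the annotated gene start where there are several), found for 25 members, the median was 18 CG against 7 for all windows. The median was 20 CG in the 7 members that rose, 28 in the 3 that were lower and 8 in the 15 that were not called. Those 15 include the 5 members with a mean under 1 TPM, whose windows held 1 to 8 CG. The 7 members not called at a mean of at least 10 TPM held 43 (Tspan5), 29 (Tspan4), 27 (Tspan7), 19 (Tspan3), 9 (Tspan6), 7 (Tspan12) and 6 (Cd63). Level and CG number are thus not separated in these medians, and a link of CG number with the calls was not tested. The letters CAGCTG, an E-box that reads the same on both strands and does not contain CG, occur in 6 of the 25 windows (Cd9, Cd81, Tspan7, Tspan10, Tspan32 and Tspan33) and in 16.3% of all windows. DNA methylation was not measured in the tables used here, and these matches describe letters only.

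In the authors' deposited TPM table the family summed to 3000 TPM in Control and 3188 TPM in Mutant. Of the 26 members, 7 were called higher and 3, with Tspan9 among them, lower, where 17.1% of all 22631 genes were called (9.03% higher and 8.1% lower). Calls were more frequent among abundant genes in general: of the 16 members with a mean of at least 10 TPM, 6 were called higher and 3 lower, and of all 8687 such genes 35.3% were called (15.6% higher and 19.6% lower). The median log2 ratio of mean TPM was 0.09 over the 26 members and 0.01 over all genes, with 13 members above zero and 13 below. At a mean of at least 10 TPM it was -0.01 over the 16 members and -0.03 over all such genes. Because the proposal of the family drew on this same comparison, nothing is read from these counts. In bulk RNA, fewer cells of a type and less RNA per cell cannot be told apart.

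**Figure D1:**
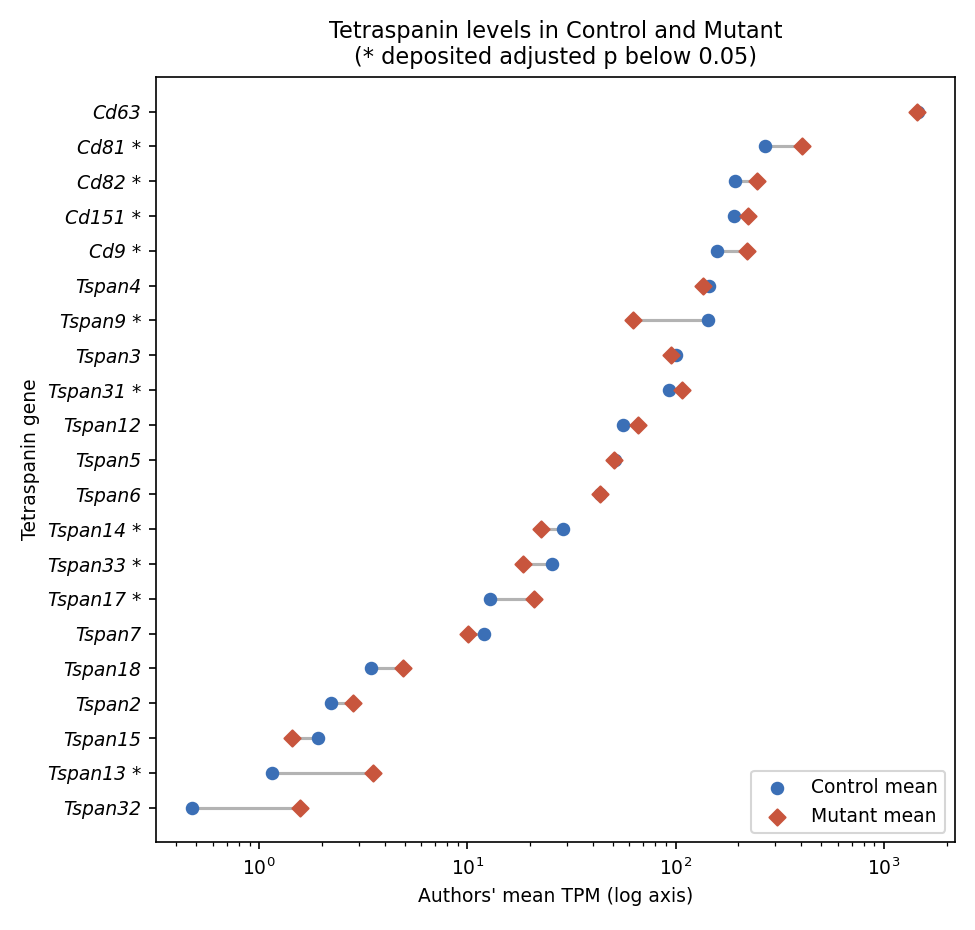
Mean TPM of each tetraspanin with an overall mean of at least 1 TPM, in Control (blue circles) and Mutant (red diamonds), on a log axis; an asterisk marks a deposited adjusted p below 0.05, and the means come without an error. Cd63 sits alone at the top near 1466 TPM in both groups, and Tspan9 moves from 144 to 62.3 TPM, the longest step of the abundant members.

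The surface and vesicle scaffolds made up most of the family's RNA, and 4 of these 5 genes rose in Mutant while Cd63 did not pass. Their sum was 75.9% of the family in Control and 79.7% in Mutant, in the authors' deposited TPM table. Of all genes there with a mean of at least 10 TPM, 35.3% were called (15.6% higher and 19.6% lower). Cd81, a fusion-related protein of myoblasts, was at 269 TPM in Control and 407 TPM in Mutant in the authors' deposited TPM table. That is 1.51 times the Control level, and the test estimate in the authors' deposited TPM table was 0.61 (SE 0.06, adjusted p = 3.79e-19). Cd9, needed on the egg for fusion with sperm, rose from 158 to 219 TPM (estimate 0.46 with SE 0.06, adjusted p = 3.65e-11 in the authors' deposited TPM table). Cd82, a suppressor of metastasis also found on satellite cells, rose from 193 to 245 TPM (estimate 0.33 with SE 0.07, adjusted p = 6.86e-06 in the authors' deposited TPM table). Cd151, the partner of laminin-binding integrins, showed the smallest called rise of the scaffolds, from 191 to 222 TPM (estimate 0.23 with SE 0.06, adjusted p = 0.00195 in the authors' deposited TPM table). These 4 genes kept ranks 2 to 5 of the family in both groups.

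Cd63, the marker of late endosomes and exosomes, was the most abundant member by a wide margin. Its means were 1466 TPM in Control and 1447 TPM in Mutant, a test estimate of -0.01 with an SE of 0.04 (adjusted p = 0.926 in the authors' deposited TPM table). That SE is among the lowest at its level: of 53 genes of like level, with a mean no lower than 0.8 times that of Cd63 and no higher than its mean divided by 0.8, 52 had an SE at least as large in the authors' deposited TPM table. Its share of the family's TPM went from 48.9% to 45.4% in the authors' deposited TPM table as other members rose. Cd63 thus differed little between Control and Mutant in a comparison with a small error.

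Of the same 5 genes, 2 were called higher and 2 lower between PT and PUT. In the authors' deposited PT/PUT table Cd63 fell 2.52-fold (log2 fold change -1.33, SE 0.06, adjusted p = 7.62e-117), the largest fall of any member there. Cd81 and Cd9 rose in the authors' deposited PT/PUT table, with log2 fold changes of 0.32 (SE 0.07, adjusted p = 1.28e-05) and 0.33 (SE 0.08, adjusted p = 0.000153). Cd151, which rose in Mutant, fell in the authors' deposited PT/PUT table (-0.24, SE 0.07, adjusted p = 0.00135), so its deposited calls have opposite signs. Cd82 did not pass in the authors' deposited PT/PUT table (0.06, SE 0.08, adjusted p = 0.591). Of the 25 members listed, 8 were called higher and 4 lower in the authors' deposited PT/PUT table, where 47.2% of all 27775 genes were called (25.1% higher and 22.1% lower). The members' 12 calls are therefore close to that background share. The median log2 fold change was 0.16 over the 25 members and 0.14 over all genes of the authors' deposited PT/PUT table.

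**Figure D2:**
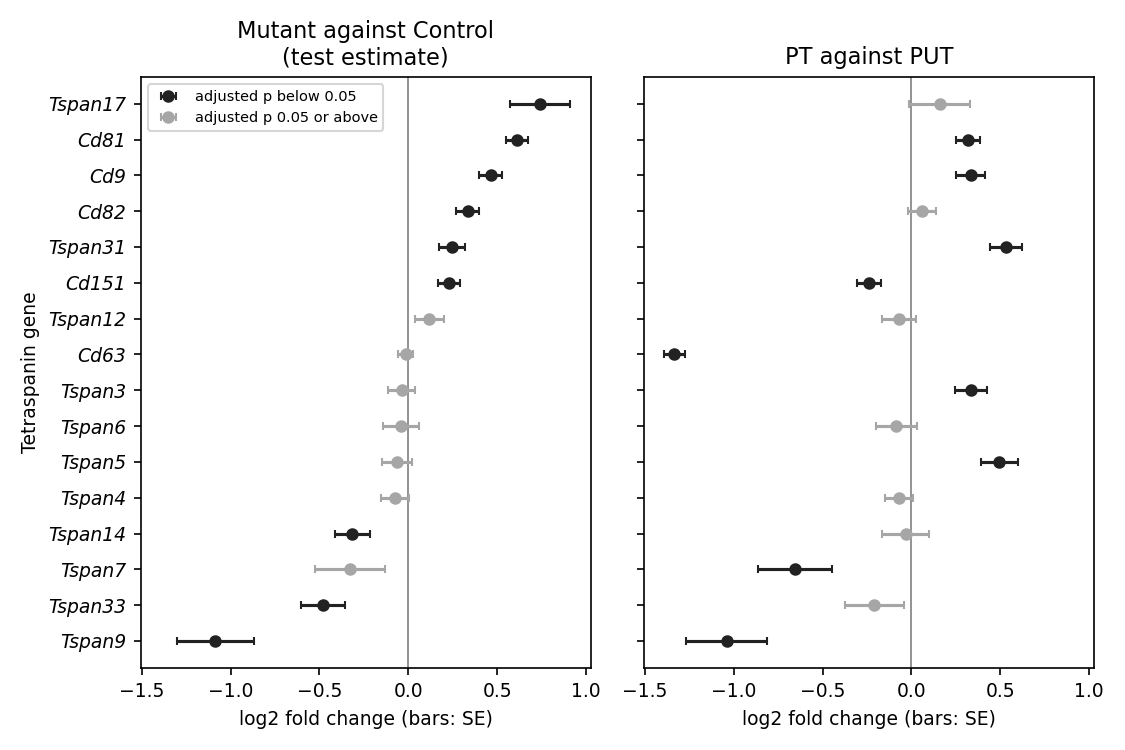
Log2 fold changes with SE bars of the 16 members with a mean of at least 10 TPM, for Mutant against Control (left, test estimate) and PT against PUT (right), in black where the deposited adjusted p was below 0.05 and in grey otherwise. Tspan9 lies lowest on the left at -1.09 and Cd63 lowest on the right at -1.33.

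Tspan9 is a member known from platelets, where it sits near the collagen receptor. The gene (ENSMUSG00000030352) is protein-coding and lies on chromosome 6, from 127961396 to 128143594 on the minus strand (GRCm38, GENCODE M21). Its mean was 144 TPM in Control and 62.3 TPM in Mutant, 2.31 times higher in Control, in the authors' deposited TPM table. The test estimate was -1.09 with an SE of 0.22 in the authors' deposited TPM table, and Tspan9 went from the 7th to the 10th place of the family by level. These are the values that brought the family up, so no test is attached to them. In the authors' deposited PT/PUT table, whose arms could share libraries with the first, Tspan9 was called lower (-1.04, SE 0.23, adjusted p = 1.83e-05), a 2.06-fold difference.

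The error of Tspan9 was wide for a gene of its level. Of 787 genes of like level, by the same limits, in the authors' deposited TPM table, the median SE was 0.07, and 27 had an SE as large as that of Tspan9. In the authors' deposited PT/PUT table the median SE was 0.08 over 1262 genes near its mean level, and 11 had an SE as large. The libraries behind Tspan9 therefore varied more than for most genes of like level in both tables. Which libraries were high or low cannot be seen in the group means. Cd81 and Cd9, by contrast, had SE values at percentiles 62.4 and 57.6 of the genes near their level in the authors' deposited TPM table.

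**Figure D3:**
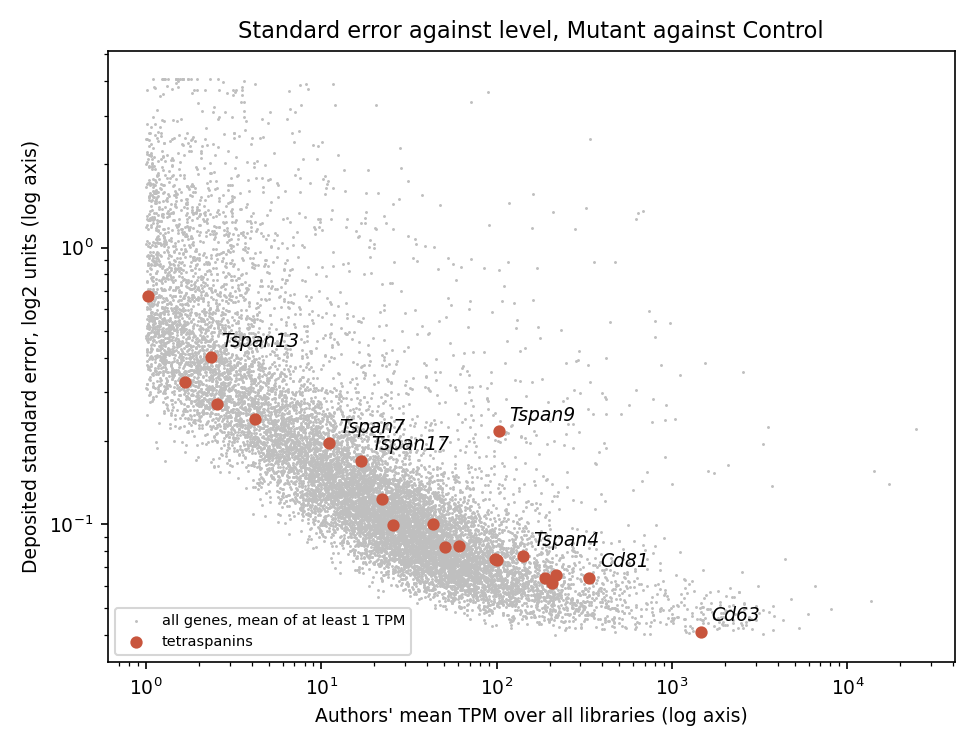
Deposited SE of the Mutant against Control test (log axis) over the authors' mean TPM of all libraries (log axis), for every gene with a mean of at least 1 TPM (grey) and for the tetraspanins among them (red). Tspan9 stands above the band of genes at its level, at an SE of 0.22, while the other labelled members lie within the band or at its lower edge.

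A member of like level and a neighbouring member were set beside Tspan9. Tspan4, known from migrasomes, the vesicles that migrating cells leave behind, had nearly the same Control level as Tspan9, 145 TPM, and 136 TPM in Mutant, and did not pass (estimate -0.08 with SE 0.08, adjusted p = 0.699 in the authors' deposited TPM table). Its log2 fold change was -0.07 (SE 0.08, adjusted p = 0.490) in the authors' deposited PT/PUT table. Tspan11, which lies 7.42 kb from Tspan9 and is read on the opposite strand, was near the floor at 0.206 and 0.186 TPM in the authors' deposited TPM table. It did not pass in either table (adjusted p = 0.906 in the authors' deposited TPM table and 0.661 in the authors' deposited PT/PUT table).

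Of the 6 members that bind ADAM10, 1 rose and 2 fell, while their sum moved little, from 120 to 114 TPM in the authors' deposited TPM table. Of all genes there, 17.1% were called, and 35.3% of those with a mean of at least 10 TPM (15.6% higher and 19.6% lower). The ADAM10-binding tetraspanins carry ADAM10 out of the endoplasmic reticulum and are grouped by the cysteines of their large outer loop. Tspan17 rose from 12.8 to 20.8 TPM (estimate 0.74 with SE 0.17, adjusted p = 0.000180 in the authors' deposited TPM table). Tspan33 fell from 25.6 to 18.5 TPM (estimate -0.48 with SE 0.12, adjusted p = 0.00108 in the authors' deposited TPM table). Tspan14 fell from 28.8 to 22.6 TPM (estimate -0.31 with SE 0.10, adjusted p = 0.0125 in the authors' deposited TPM table). Within the group's TPM, Tspan17 thus went from 10.7% to 18.3%, and Tspan33 from 21.3% to 16.3%, in the authors' deposited TPM table. Tspan5, the most abundant of the 6, was at 51.0 and 50.5 TPM and did not pass (estimate -0.06 with SE 0.08, adjusted p = 0.810 in the authors' deposited TPM table).

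Tspan15, known for steering ADAM10 to N-cadherin, was low at 1.91 and 1.44 TPM (adjusted p = 0.631 in the authors' deposited TPM table). Tspan10, a pigment cell member, was at 0.0308 TPM in Control and listed at 0 in Mutant in the authors' deposited TPM table. Adam10 itself did not pass, with 56.8 TPM in Control and 62.0 TPM in Mutant (0.08, SE 0.07, adjusted p = 0.577 in the authors' deposited TPM table). In the authors' deposited PT/PUT table Tspan5 rose (0.50, SE 0.11, adjusted p = 1.12e-05), and Tspan17 (0.16, SE 0.17, adjusted p = 0.489), Tspan33 (-0.21, SE 0.16, adjusted p = 0.310) and Tspan14 (-0.03, SE 0.13, adjusted p = 0.877) did not pass. Adam10 was higher in the authors' deposited PT/PUT table (0.29, SE 0.08, adjusted p = 0.000396). Whether the changes of these members differ between the comparisons was not tested.

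**Figure D4:**
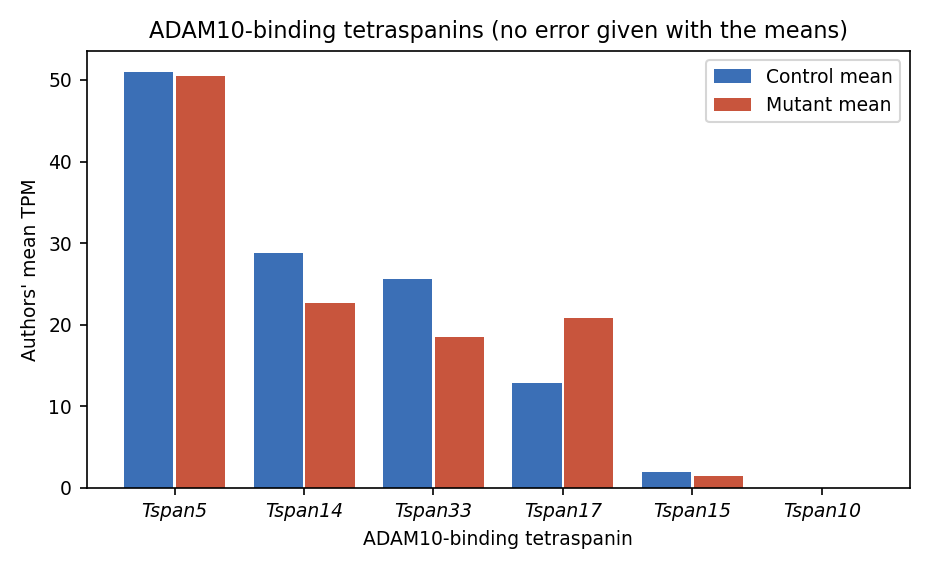
Mean TPM of the 6 tetraspanins that bind ADAM10 in Control (blue) and Mutant (red), without error bars because the means come without an error. Tspan17 is higher in Mutant (20.8 against 12.8 TPM), Tspan14 and Tspan33 are lower, and Tspan5 is near 51 TPM in Control and 50.5 TPM in Mutant.

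The leukocyte members were at or near the floor. Cd53, a pan-leukocyte protein, was listed at 0 in Control and at 0.316 TPM in Mutant (adjusted p = 0.0944 in the authors' deposited TPM table). Cd37, of B cells, was at 0.424 and 0.623 TPM (adjusted p = 0.968 in the authors' deposited TPM table). Tspan32, of blood cells, was at 0.478 and 1.57 TPM (estimate 1.44 with SE 0.67, adjusted p = 0.137 in the authors' deposited TPM table). It rose in the authors' deposited PT/PUT table (2.17, SE 0.80, adjusted p = 0.0155), where Cd53 (4.15, SE 1.90, adjusted p = 0.0598) and Cd37 (-0.07, SE 0.86) did not pass. Each of these members had a mean level below 10 normalised counts there, with 7.95 for Tspan32.

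Of the 10 macrophage and leukocyte markers, 7 were analysed in the authors' deposited TPM table, and 2 of them, Laptm5 and Cd68, rose and 0 fell there. Of all genes there, 17.1% were called. The sum of the 7 was 32.5 TPM in Control and 112 TPM in Mutant in the authors' deposited TPM table. Laptm5 alone gave 25.1 and 84.8 TPM of it (estimate 1.75 with SE 0.62, adjusted p = 0.0314). Fcer1g, at 3.22 and 19.3 TPM, did not pass (estimate 2.48 with SE 1.27, adjusted p = 0.203). Cd68 had means of 3.46 TPM in Control and 6.27 TPM in Mutant, from the authors' deposited TPM table. The other 4 markers were below 1 TPM in both groups of the authors' deposited TPM table and did not pass: Csf1r at 0.156 and 0.430 TPM, Lyz2 at 0.197 and 0.608 TPM, Ptprc at 0.381 and 0.303 TPM, and C1qa at 0.0496 and 0.0648 TPM. There were 5 of these markers analysed in the authors' deposited PT/PUT table, of which Laptm5, Fcer1g and Lyz2 rose and Csf1r fell. Itgam, not among these 5 because its symbol is on several rows, was also called higher there (1.13, SE 0.21, adjusted p = 3.70e-07). Of all genes, 47.2% were called in the authors' deposited PT/PUT table. The part of such cells in the values of Tspan32, Cd37 and Cd53 was not tested.

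Among the remaining members, Tspan31 and Tspan13 rose in Mutant. Tspan31, which is co-amplified with CDK4 in sarcomas, rose from 93.2 to 107 TPM (estimate 0.24 with SE 0.07, adjusted p = 0.00820 in the authors' deposited TPM table) and by 0.53 (SE 0.09, adjusted p = 2.63e-08) in the authors' deposited PT/PUT table. Its gene (chromosome 10, 127067280 to 127070264, minus strand, GRCm38, GENCODE M21) shares 641 bases with Cdk4, the kinase of the first gap phase, on the opposite strand. Cdk4 fell from 531 to 428 TPM (estimate -0.41 with SE 0.05, adjusted p = 1.09e-14 in the authors' deposited TPM table). The libraries were strand-specific by the labels, and the sources used here do not state if the counting used strand. How reads of the shared stretch were assigned is therefore unknown, and their part in either value was not tested.

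Tspan13 was low, at 1.15 TPM in Control and 3.51 TPM in Mutant (estimate 1.62 with SE 0.40, adjusted p = 0.000656 in the authors' deposited TPM table). It had the steepest called rise of the family in both tables, with a log2 fold change of 4.11 (SE 0.73, adjusted p = 8.35e-08) in the authors' deposited PT/PUT table. Its level in Mutant was still below those of the 16 members with a mean of at least 10 TPM in the authors' deposited TPM table.

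Tspan2, Tspan3 and Tspan7 passed between PT and PUT and did not pass between Mutant and Control. Tspan2, known from oligodendrocytes, was at 2.21 and 2.83 TPM (adjusted p = 0.531 in the authors' deposited TPM table) and rose by 1.28 (SE 0.35, adjusted p = 0.000726) in the authors' deposited PT/PUT table. Tspan3 was at 100.1 and 95.1 TPM (estimate -0.04 with SE 0.08, adjusted p = 0.926 in the authors' deposited TPM table) and rose by 0.34 (SE 0.09, adjusted p = 0.000615) in the authors' deposited PT/PUT table. Tspan7, a neuronal member whose gene lies on the X chromosome, was at 12.0 and 10.03 TPM (estimate -0.33 with SE 0.20, adjusted p = 0.328 in the authors' deposited TPM table) and fell by 0.65 (SE 0.21, adjusted p = 0.00470) in the authors' deposited PT/PUT table. Whether the changes of these 3 genes differ between the comparisons was not tested.

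Tspan12 and Tspan6 passed in neither table. Tspan12, the co-receptor of Norrin at Frizzled4, was at 55.6 and 65.8 TPM (estimate 0.12 with SE 0.08, adjusted p = 0.447 in the authors' deposited TPM table) and had -0.07 (SE 0.09, adjusted p = 0.581) in the authors' deposited PT/PUT table. Its receptor gene Fzd4 was at 4.85 and 4.82 TPM (adjusted p = 0.931 in the authors' deposited TPM table). Tspan6 was at 43.5 and 43.3 TPM (estimate -0.04 with SE 0.10, adjusted p = 0.926 in the authors' deposited TPM table) and had -0.08 (SE 0.12, adjusted p = 0.594) in the authors' deposited PT/PUT table. The other 7 members, Tspan1, Tspan10, Tspan11, Tspan15, Tspan18, Cd37 and Cd53, stayed at or below 4.90 TPM in either group and had adjusted p from 0.0933 to 0.968 in the authors' deposited TPM table. Of these, Tspan18, known for binding the calcium channel subunit Orai1, was the most abundant, at 3.43 and 4.90 TPM in the authors' deposited TPM table.

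A number of members are close neighbours in the genome (GRCm38, GENCODE M21). Besides Tspan11 and Tspan9, gaps under 100 kb separate Tspan18 and Cd82 on chromosome 2 (84.6 kb), Cd151 and Tspan4 on chromosome 7 (3.77 kb, with Polr2l between them) and Tspan32 and Cd81 on chromosome 7 (33.1 kb). In 3 of these 4 pairs an abundant member lay beside a low one: Cd82 beside Tspan18, Tspan9 beside Tspan11 and Cd81 beside Tspan32. In the remaining pair both were abundant, and Cd151 rose while Tspan4 did not pass in the authors' deposited TPM table.

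Partners of tetraspanins changed in both directions. Of 39 partner genes analysed, 14 were called higher and 7 lower by their means in the authors' deposited TPM table, where 17.1% of all genes were called. The sign of the test estimate gave 15 higher and 6 lower, since Notch1 has opposite signs in the authors' deposited TPM table. All 21 called partners were among the 30 with a mean of at least 10 TPM, a level at which 35.3% of all genes were called in the authors' deposited TPM table. The median log2 ratio of the 39 was 0.09 against 0.01 over all genes. Of 36 analysed in the authors' deposited PT/PUT table, 15 were called higher and 9 lower, beside 47.2% of all genes called. The partner list was drawn up with results of these data known, so nothing particular to it is read from these counts. Among 7 integrin chains in the authors' deposited TPM table, 2 rose (Itgb1 and Itgb4) and 2 fell (Itga3 and Itga7). Itga3, a laminin-binding chain that pairs with Cd151, fell from 56.6 to 38.3 TPM (estimate -0.55 with SE 0.09, adjusted p = 3.81e-09 in the authors' deposited TPM table) and by 0.74 (SE 0.10, adjusted p = 1.04e-12) in the authors' deposited PT/PUT table. Itgb4 rose from 45.1 to 67.1 TPM (estimate 0.60 with SE 0.08, adjusted p = 5.08e-11 in the authors' deposited TPM table).

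Of 5 immunoglobulin-family partners, 2 rose and 1 fell in the authors' deposited TPM table. Of all genes there, 17.1% were called, and 35.3% of those with a mean of at least 10 TPM. Ptgfrn, a direct partner of Cd9 and Cd81, rose from 51.0 to 63.9 TPM (estimate 0.32 with SE 0.06, adjusted p = 1.67e-06 in the authors' deposited TPM table) and by 0.20 (SE 0.07, adjusted p = 0.0124) in the authors' deposited PT/PUT table. Igsf8, the other such partner, was at 33.6 and 42.0 TPM and did not pass (estimate 0.27 with SE 0.13, adjusted p = 0.162 in the authors' deposited TPM table), and it fell by 0.40 (SE 0.09, adjusted p = 9.64e-05) in the authors' deposited PT/PUT table. Cd47, the signal that spares cells from phagocytes, rose from 64.4 to 94.7 TPM (estimate 0.56 with SE 0.16, adjusted p = 0.00392 in the authors' deposited TPM table).

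Of 7 ADAM proteases and substrates, 3 were called higher and 2 lower by their means in the authors' deposited TPM table, and 4 higher and 1 lower by the test estimate. The share called there was 17.1% of all genes, and 35.3% of those with a mean of at least 10 TPM. Notch3 rose from 18.3 to 31.4 TPM (estimate 0.77 with SE 0.06, adjusted p = 8.62e-34 in the authors' deposited TPM table) and fell by 0.34 (SE 0.07, adjusted p = 1.88e-06) in the authors' deposited PT/PUT table. Notch1 was counted as lower by its means of 35.1 and 34.8 TPM, although its test estimate was 0.45 (SE 0.08, adjusted p = 5.36e-07 in the authors' deposited TPM table), so its direction depends on the measure.

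Of 10 other surface partners, 4 rose and 2 fell in the authors' deposited TPM table. The membrane protease Mmp14 rose from 53.2 to 96.7 TPM (estimate 0.80 with SE 0.18) and the growth factor receptor Egfr from 15.8 to 23.9 TPM (estimate 0.61 with SE 0.11), while the transferrin receptor Tfrc fell from 199 to 150 TPM (estimate -0.49 with SE 0.05), in the authors' deposited TPM table. Of 7 genes of vesicle sorting, 3 rose (Sdcbp, Sdc1 and Pdcd6ip) and 0 fell in the authors' deposited TPM table. Of 3 genes of the Norrin pathway, 0 passed in the authors' deposited TPM table. No group of partners held calls in 1 direction only, apart from vesicle sorting in the authors' deposited TPM table, and apart from other surface partners (5 higher, 0 lower) and the Norrin pathway (0 higher, 1 lower) in the authors' deposited PT/PUT table. The share called in the authors' deposited PT/PUT table was 47.2% of all genes. Such directions rest on few calls of lists drawn up with results known, so nothing particular is read from them.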

How the data were processed

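RNA of cultured satellite cells was sequenced. Per the labels' protocols, RNA of the Control and Mutant libraries was depleted of ribosomal RNA, made into strand-specific libraries and read in pairs of 150 bp. Per the submitters' processing notes their tools were featureCounts 2.0.1, STAR 2.7.6a, DESeq2 and Trim Galore 0.6.6, while Cre Control used HISAT2 2.2.1 rather than STAR, with the build GRCm38 and no role or order of the tools.

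The authors deposited mean TPM of all, Control and Mutant libraries, with log2 fold changes, standard errors, a test statistic (a score), p-values and adjusted p-values. The header of that table names each column 1 place to the left of its values. The fold changes there were recomputed from mean TPM plus 1 and matched within 4.79e-08 in log2 units. The overall mean equals the average of the group means for every gene. Per the file headers, the PT/PUT table gives a mean signal (normalised counts averaged over libraries), log2 fold changes and p-values. The authors deposited counts of repeats per library, used here for shares only. No model was fitted to genes, since only comparisons were at hand, so depth sets no interval on them.

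Calls are the deposited adjusted p below 0.05. Tables were joined by gene ID in Python 3.11.15 with pandas 2.3.3, and p-values re-adjusted (Benjamini-Hochberg) and recentred for alternatives by code tested on simulated data. Of the listed partners and markers, 2 symbols on several rows (Hgs and Itgam) were left out of the list counts. The 26 members matched GENCODE M21, and 25 a RefSeq promoter window. Named members are those called in either table or with a mean of at least 10 TPM; named partners are the 8 largest test estimates among called genes of at least 10 TPM, and others that bear on a named member. Ptgfrn, Igsf8, Adam10, Fzd4 and Cdk4 were named for that reason, and Laptm5 and other markers after their values were seen. Members and lists were chosen with earlier results of these data known. Protein sequences planned for print were not used here. Comparisons with Cre Control were not analysed here.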

Additional observations from a re-analysis of the deposited data

How the results depend on the processing

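No paired analysis was possible because the gene tables hold group summaries and no value per library, and for the same reason leaving out a replicate was not run. Counts of called members stayed within 1.5 times the values given above under each alternative. For Mutant against Control, 9 of the 10 calls remained at a threshold of 0.01, where Tspan14 was lost, and at 0.1 Cd53 and Tspan18 were gained. For PT against PUT, 11 of the 12 calls remained at 0.01, where Tspan32 was lost, and Cd53 and Tspan15 were gained at 0.1. Leaving out members with a mean level below 10 normalised counts also left 11 calls, without Tspan32. All calls of both tables remained when p-values were re-adjusted over every gene or recentred on the median of all genes. The median log2 ratio of the members in Mutant against Control was 0.09 over all 26. It was 0.20 among those with a mean of at least 1 TPM, which leaves out the 5 members under 1 TPM (median -0.02). Among the 16 members with a mean of at least 10 TPM it was -0.01, beside -0.03 over all such genes. Among single genes, the ratio of Tspan12 (0.24) was above its test estimate (0.12), and the ratio of Tspan13 (1.07) was below its test estimate (1.62) and below its value with a pseudocount of 0.1 TPM (1.53). With that pseudocount Tspan32 was at 1.53 beside 0.80. The partner counts by the sign of the test estimate, given above, were added after seeing the data. The IAPEz-int share of each library was the same with simple repeats left out. The depth behind the gene means is unknown, so it cannot be said which low members were detectable.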

Other observations

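Rom1, a photoreceptor member of the tetraspanin superfamily that the naming rule does not cover, rose from 3.95 to 10.2 TPM in Mutant (estimate 1.35 with SE 0.24, adjusted p = 5.23e-07 in the authors' deposited TPM table). It did not pass in the authors' deposited PT/PUT table (-0.44, SE 0.20, adjusted p = 0.0524). The other such genes, Prph2, Upk1a and Upk1b, stayed at or below 0.489 TPM in both groups and did not pass in the authors' deposited TPM table.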
